A study of Mus musculus with 12 samples.

Results

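Gluconeogenesis is the synthesis of glucose from lactate, amino acids and glycerol. The genes described here were 5 that encode its committed steps, Pcx, Pck1, Fbp1, G6pc and Slc37a4, and Ppargc1a, which encodes a transcriptional coactivator of that programme. The members were the rows of the deposited expression table that carry these 6 symbols, and all 6 were found among its 24475 genes. Liver pieces of fed mice gave the polyadenylated RNA, with 6 wild-type (WT) libraries and 6 labelled Gcg KO, a knockout of the gene of the glucagon precursor. The sources used here do not give the allele, strain, sex or age. Library names below use the title numbers (WT 1 to WT 6, Gcg KO 7 to Gcg KO 12). Whether each library is a separate animal is not stated, so p-values here cover only how far these samples spread, and that spread may be technical.

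In the liver, pyruvate carboxylase and phosphoenolpyruvate carboxykinase carry pyruvate round the irreversible last step of glycolysis. Fructose bisphosphatase and glucose-6-phosphatase then undo the other irreversible steps, and the transporter encoded by Slc37a4 brings glucose-6-phosphate to the phosphatase inside the endoplasmic reticulum. Glucagon acts through cyclic AMP and the transcription factor CREB, which is known to induce Ppargc1a, Pck1 and G6pc, while insulin represses Pck1 and G6pc through the exclusion of FoxO1 from the nucleus.

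Expression is given in RPKM, read density scaled to gene length and to library size, as deposited by the authors, so levels can be compared between genes. The estimated depth was 10300000 to 15000000 reads per library. Genotypes were compared with limma on log2(RPKM + 0.5) over the 11347 genes with a mean of at least 0.5 RPKM, all 6 members included, with Benjamini-Hochberg adjustment over all of them and a threshold of 0.05. Positive log2 fold changes mean a higher level in Gcg KO, and each has a standard error (SE), and levels are means ± SD over 6 libraries per group. The value of Gcg was 0 RPKM in each of the 12 libraries, so it checked no label. Summed over 8 hepatocyte markers, expression lay between 53424 and 70792 RPKM in WT and between 53590 and 65237 RPKM in Gcg KO. In 3 libraries, WT 6, Gcg KO 10 and Gcg KO 12, Igfbp1 was below 50 RPKM (6.22, 14.2 and 9.35 RPKM). Igfbp1 encodes a secreted IGF-binding protein, and it lay between 159 and 738 RPKM in the other 9 libraries. Each of the 6 members is compared with and without these 3 libraries, and other genes where the text says so.

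Fbp1 was the only member that passed the threshold, and it was lower in Gcg KO livers. In all 12 libraries 1 of the 6 members passed, against 3.87% of all tested genes (1.95% higher and 1.92% lower in Gcg KO). Among the 9 libraries with higher Igfbp1 the same member passed, against 2.68% of tested genes (1.15% higher and 1.52% lower). The groups did not overlap for 2 members, Fbp1 (lower) and Pcx (higher). Such separation was found for 3.09% of tested genes in the 12 libraries (1.6% higher, 1.5% lower) and for 7.27% in the 9 (3.08% higher, 4.19% lower). Before adjustment 3 members had p below 0.05 in the 12 libraries (15.7% of tested genes) and 3 in the 9 libraries (15.2%).

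**Figure D1:**
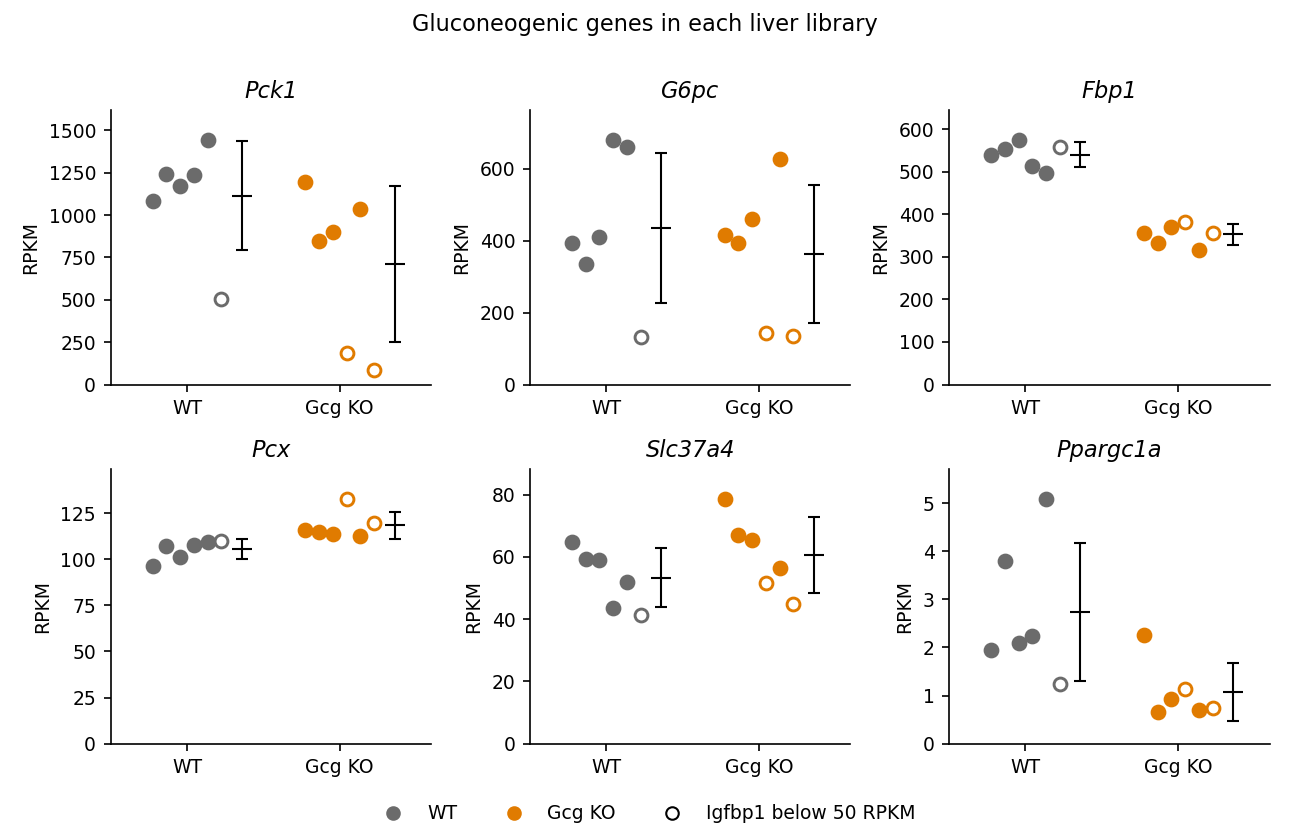
RPKM of the 6 genes by library, 6 a group, with grey points for WT and orange points for Gcg KO; open circles are the 3 libraries with Igfbp1 below 50 RPKM and black bars are the group mean and SD over all 6 libraries. Fbp1 lies between 497.6 and 575 RPKM in WT and between 317 and 382 RPKM in Gcg KO, while Pck1 and G6pc are lowest in the open circles of both genotypes.

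Pcx encodes pyruvate carboxylase, the mitochondrial enzyme that turns pyruvate into oxaloacetate. It had a lowest value of 96.4, a median of 107 and a highest value of 110.1 RPKM in WT, and 113, 115 and 133 RPKM in Gcg KO. Every Gcg KO library was thus above every WT library, by a small margin. The means were 105 ± 5.40 and 118 ± 7.48 RPKM, a log2 fold change of 0.17 ± 0.06 (SE), which did not pass the threshold (adjusted p = 0.149). Without the 3 libraries it was 0.13 ± 0.06 (adjusted p = 0.343). The call depended on scaling, since quantile normalization gave 0.23 (adjusted p = 0.0256). Pcx varied least of the members. Its residual SD within groups was 0.08 on the log2 scale, at percentile 3.5 of all tested genes. Pcx (Entrez 18563) lies on chromosome 19 from 4510472 to 4621752 in GRCm38 (plus strand), with 21 exons in its principal transcript.

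Pck1 encodes the cytosolic phosphoenolpyruvate carboxykinase, which turns oxaloacetate into phosphoenolpyruvate. It was the most abundant member in WT, at 1113 ± 321 RPKM. Its WT libraries had a lowest value of 504, a median of 1204 and a highest of 1444 RPKM, and its Gcg KO libraries 85.3, 872 and 1196 RPKM. The lowest value of each group, and the next lowest of Gcg KO (189 RPKM), came from the 3 libraries with low Igfbp1. In the other 9 libraries Pck1 lay between 1083 and 1444 RPKM in WT and between 845 and 1196 RPKM in Gcg KO. The groups overlapped there in 2 WT and 1 Gcg KO libraries, WT 1, WT 3 and Gcg KO 7.

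The log2 fold change of Pck1 was -1.09 ± 0.59 (SE) in the 12 libraries, with a 95% interval from -2.36 to 0.18 (adjusted p = 0.407). Without the 3 libraries it was -0.32 ± 0.12, with an interval from -0.58 to -0.06 (unadjusted p = 0.0222, adjusted p = 0.215). The difference did not pass in either comparison, and the fitted value was smaller by more than 1.5 times in the 9 libraries. It was also smaller without Gcg KO 12 alone (-0.58, adjusted p = 0.598). The residual SD was 1.18 in the 12 libraries (percentile 99.4 of all tested genes) and 0.19 in the 9 (percentile 56.6). The highest library exceeded the lowest by 16.9-fold over all 12 and by 1.71-fold over the 9. Pck1 (Entrez 18534) lies on chromosome 2 from 173153073 to 173159274 in GRCm38 (plus strand), with 10 exons in its principal transcript.

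Fbp1 encodes the liver fructose bisphosphatase, which removes a phosphate from fructose-1,6-bisphosphate and opposes phosphofructokinase. Its WT libraries had a lowest value of 497.6, a median of 547 and a highest of 575 RPKM. Its Gcg KO libraries had 317, 356 and 382 RPKM. The highest Gcg KO value was well below the lowest WT value. Fbp1 fell by 0.61 ± 0.06 (SE) on the log2 scale, a 1.53-fold lower level (539 ± 29.4 against 352 ± 24.3 RPKM, adjusted p = 8.7e-05), in 6 of 6 libraries.

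The 3 libraries with low Igfbp1 did not stand apart for Fbp1: WT 6 had 558 RPKM, Gcg KO 10 had 382 RPKM and Gcg KO 12 had 356 RPKM. Leaving them out gave a log2 fold change of -0.64 ± 0.08 (adjusted p = 0.00146). The residual SD of Fbp1 was 0.09 in the 12 libraries, at percentile 6.1 of all tested genes. Fbp2, which encodes the muscle form of the enzyme, was at 0.211 (WT) and 0.224 (Gcg KO) RPKM and was not tested. Fbp1 (Entrez 14121) lies on the minus strand of chromosome 13 from 62864753 to 62888298 in GRCm38, and its principal transcript has 7 exons.

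G6pc encodes the catalytic subunit of glucose-6-phosphatase, which releases free glucose. Its lowest, median and highest values were 132, 402 and 681 RPKM in WT and 134, 405 and 628 RPKM in Gcg KO. The groups overlapped over almost their whole range. The means were 436 ± 208 and 362 ± 192 RPKM, a log2 fold change of -0.30 ± 0.45 with an interval from -1.27 to 0.67 (adjusted p = 0.823). Without the 3 libraries it was -0.03 ± 0.23, with an interval from -0.53 to 0.47 (adjusted p = 0.970). Leaving out 1 library moved it between -0.61 (WT 6, adjusted p = 0.512) and -0.06 (Gcg KO 12, adjusted p = 0.976).

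The 3 libraries with low Igfbp1 had nearly the same G6pc level whatever their genotype: 132 RPKM in WT 6, 143 RPKM in Gcg KO 10 and 134 RPKM in Gcg KO 12. The other 9 libraries lay between 336 and 681 RPKM. Within those 9, G6pc was highest in WT 4, WT 5 and Gcg KO 11 (681, 660 and 628 RPKM) and no other library exceeded 459 RPKM. Its residual SD was 0.90 in the 12 libraries and 0.40 in the 9 (percentiles 98.6 and 93.3 of all tested genes), so G6pc, unlike Pck1, stayed among the more variable genes. G6pc3, the ubiquitous relative, averaged 2.65 (WT) and 2.39 (Gcg KO) RPKM (adjusted p = 0.774). G6pc (Entrez 14377) lies on chromosome 11 from 101367716 to 101377903 in GRCm38 (plus strand), with 5 exons in its principal transcript.

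Slc37a4 encodes the transporter that supplies glucose-6-phosphate to that phosphatase. Its lowest, median and highest values were 41.3, 55.6 and 65.0 RPKM in WT and 44.9, 60.9 and 78.7 RPKM in Gcg KO, and the groups overlapped. The means were 53.4 ± 9.45 and 60.7 ± 12.2 RPKM, a log2 fold change of 0.18 ± 0.14 (adjusted p = 0.622). Without the 3 libraries it was 0.26 ± 0.13, with an interval from -0.02 to 0.54 (adjusted p = 0.362). WT 6 and Gcg KO 12 were the lowest of their groups, as for Pck1 and G6pc. WT 4, however, was nearly as low (43.6 RPKM), and it had the highest G6pc level of all. Slc37a4 (Entrez 14385) lies on chromosome 9 from 44396946 to 44402966 in GRCm38 (plus strand), with 9 exons in its principal transcript.

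The ratio of G6pc to Slc37a4 therefore varied widely, from 3.19 to 15.6 in WT and from 2.77 to 11.1 in Gcg KO. It was 2.77 to 3.19 in the 3 libraries with low Igfbp1 and 5.28 to 15.6 in the other 9. Phosphatase and transporter act as one system in the endoplasmic reticulum membrane, but their RNA levels did not move in parallel across these libraries.

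Ppargc1a encodes PGC-1 alpha, a coactivator that binds FoxO1 and HNF4 alpha at gluconeogenic promoters. It was the least abundant member. Its lowest, median and highest values were 1.25, 2.17 and 5.09 RPKM in WT and 0.664, 0.835 and 2.27 RPKM in Gcg KO. Of the Gcg KO libraries 5 lay below every WT library, and Gcg KO 7 lay within the WT range. The means were 2.74 ± 1.42 and 1.07 ± 0.611 RPKM, a log2 fold change of -1.01 ± 0.28 with an interval from -1.60 to -0.41 (unadjusted p = 0.00294, adjusted p = 0.0638). On this scale the pseudocount of 0.5 RPKM understates changes at such levels, and a pseudocount of 0.1 gave -1.26 (adjusted p = 0.0578).

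In the 9 libraries the log2 fold change of Ppargc1a was -1.13 ± 0.31 (adjusted p = 0.0932), with fewer samples in the fit. Ppargc1a passed without WT 6 (-1.16, adjusted p = 0.0278) or without Gcg KO 7 (-1.18, adjusted p = 0.0243). Leaving out WT 6 alone kept low Igfbp1 in Gcg KO libraries only. The principal transcript has 6464 bases, so the deposited values correspond to an estimated 49 to 382 reads per library, against at least 1100 for each other member. Its residual SD was 0.54, at percentile 95.9 of all tested genes. Ppargc1a (Entrez 19017) lies on chromosome 5 from 51454249 to 52115853 in GRCm38 (minus strand), with 13 exons in its principal transcript. The related coactivator genes Ppargc1b (1.59 and 1.53 RPKM) and Pprc1 (2.69 and 2.78 RPKM) had similar levels in both groups (adjusted p = 0.977 and 0.955).

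**Figure D2:**
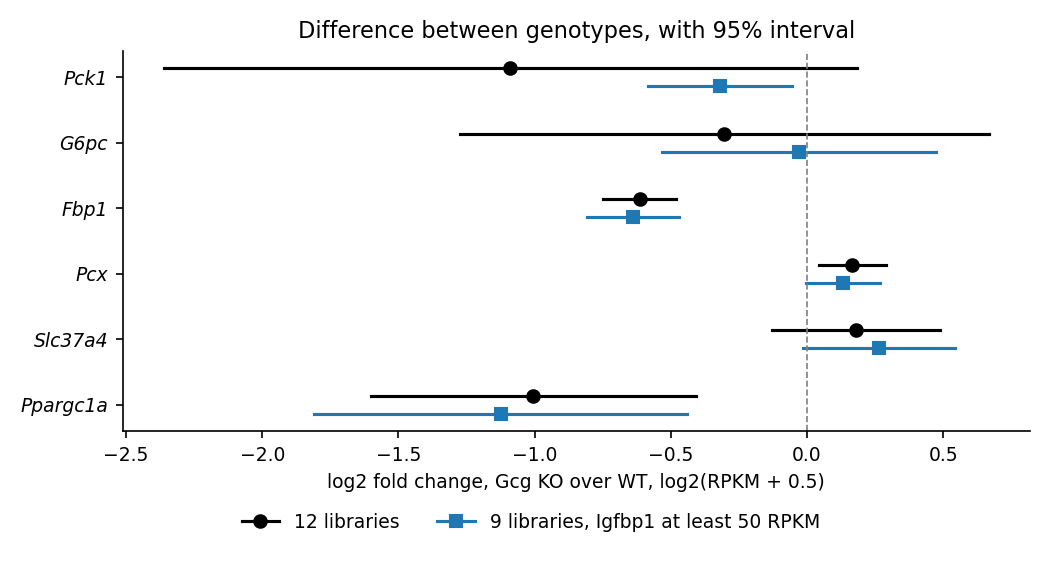
Log2 fold change of each gene, Gcg KO over WT, on log2(RPKM + 0.5), with its 95% interval, in all 12 libraries (black circles) and in the 9 libraries with Igfbp1 of at least 50 RPKM (blue squares). The interval of Pck1 runs from -2.36 to 0.18 in the 12 libraries and from -0.58 to -0.06 in the 9, while Fbp1 has almost the same value in both.

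The low-Igfbp1 libraries thus had low Pck1, G6pc and, less so, Slc37a4, while Fbp1 was not low in them. For Pcx they were at the top of their groups: WT 6 was the highest WT library (110.1 RPKM), and Gcg KO 10 and Gcg KO 12 were the highest of Gcg KO (133 and 119.8 RPKM). For Ppargc1a, WT 6 was the lowest WT library (1.25 RPKM), whereas Gcg KO 10 and Gcg KO 12 (1.13 and 0.741 RPKM) lay within the range of the other Gcg KO libraries. These libraries were singled out by a measured gene, so they were described by their values and not tested against the others. Of the summed cell type markers, only those of neutrophils lay apart in the same libraries. The summed RPKM of 6 neutrophil markers was 2.29 to 3.25 in the 3 libraries and 18.3 to 67.1 in the other 9, with 0 of the 6 markers listed at 0 in every library. Their part in the values of Pck1 and G6pc was not tested. The summed hepatocyte markers were 59531 to 65237 RPKM in the 3 and 53424 to 70792 RPKM in the other 9. Summed macrophage markers were 64.0 to 76.2 and 44.7 to 91.1 RPKM, and the sums of the remaining cell types overlapped as well. In whole tissue, fewer cells of a type and less RNA per cell cannot be told apart.

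**Figure D3:**
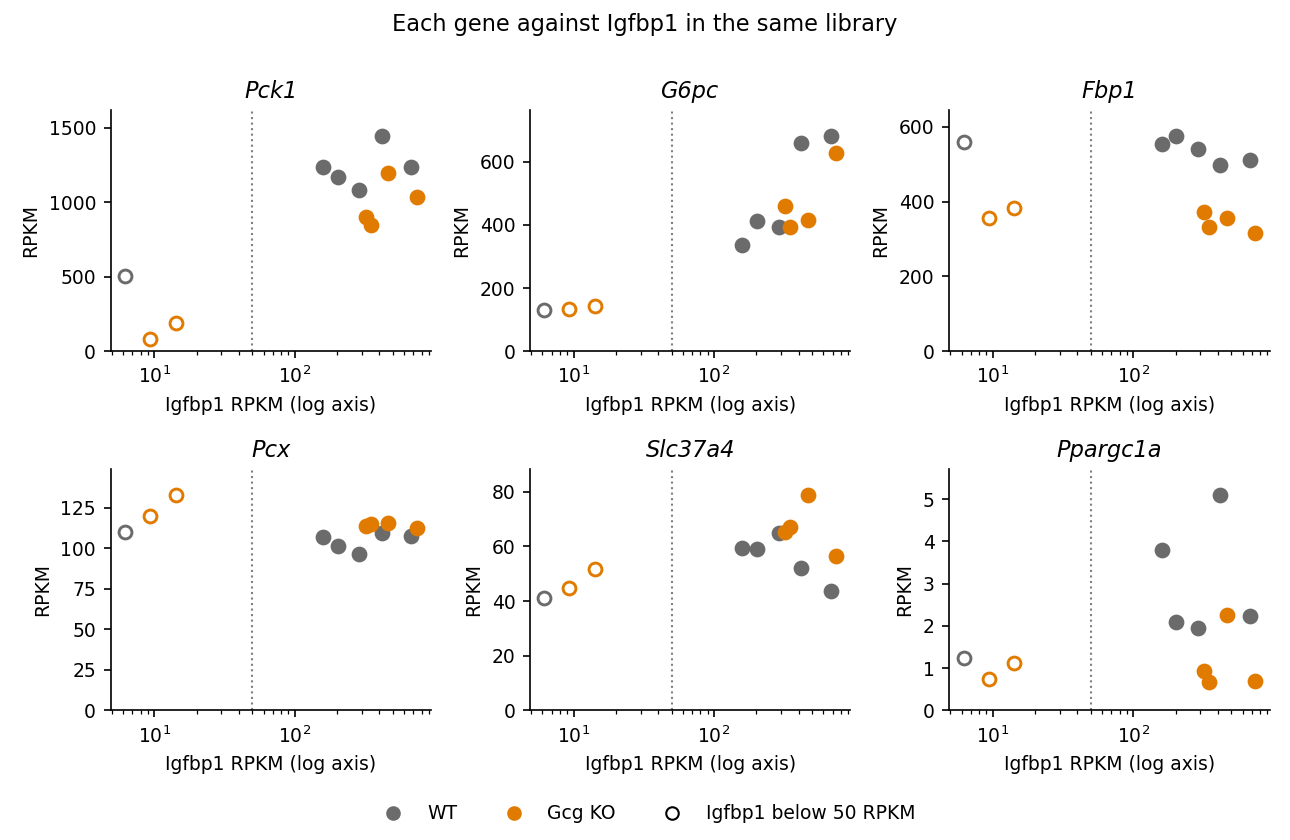
RPKM of each gene (linear axis) against RPKM of Igfbp1 (log axis) in the same library, grey for WT and orange for Gcg KO, with the limit of 50 RPKM as a dotted line. G6pc lies at 132 to 143 RPKM in the 3 libraries left of the line and at 336 RPKM or more in the 9 to its right, whereas Fbp1 is split by genotype on both sides.

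The upstream sequences of Pck1 and G6pc, which were both low in those 3 libraries, and of Fbp1, which instead differed by genotype, are shown for comparison. They are RefSeq sequences of GRCm38.p6, cut to the bases upstream of both the RefSeq and the GENCODE starts and written 5′ to 3′ on the strand of the gene. Capitals mark the searched motifs: the CREB core TGACG, the full CREB site TGACGTCA that contains it, and the FoxO-type letters TGTTTAC and TGTTTTG, each on both strands. Pck1 is at chr2:173152823-173153047 (plus strand), G6pc at chr11:101367466-101367560 (plus strand) and Fbp1 at chr13:62888299-62888532 (minus strand).
Pck1: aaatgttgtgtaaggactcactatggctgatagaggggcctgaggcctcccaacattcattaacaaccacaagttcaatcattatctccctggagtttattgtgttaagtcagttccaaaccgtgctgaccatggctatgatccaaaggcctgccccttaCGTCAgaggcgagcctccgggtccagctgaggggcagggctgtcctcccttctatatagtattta
G6pc: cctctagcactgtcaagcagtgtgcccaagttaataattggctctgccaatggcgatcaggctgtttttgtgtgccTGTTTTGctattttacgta
Fbp1: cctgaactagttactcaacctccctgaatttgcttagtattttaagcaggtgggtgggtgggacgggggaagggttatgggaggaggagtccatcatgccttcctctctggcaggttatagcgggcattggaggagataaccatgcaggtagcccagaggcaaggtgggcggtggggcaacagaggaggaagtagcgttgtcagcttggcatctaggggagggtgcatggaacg

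In the 250 bases upstream of the RefSeq start, Pck1 held 1 CREB core, which begins 90 bases before the start and reads CGTCA on the gene strand. Of 32851 such windows, 17.8% held the core and 1.55% the full site. G6pc held 1 TGTTTTG, beginning 174 bases before its RefSeq start, and 5.56% of windows held that motif (3.17% held TGTTTAC). The principal GENCODE start of G6pc lies 155 bases upstream of the RefSeq start, so the motif is much closer to that start. The window of Fbp1 held none of these letters, nor did either window of Pcx. Of the 3 windows of Slc37a4, 2 held the core, but those 2 overlap and share a match. The listed window of Ppargc1a held the core 49 bases before its start, but that start lies 13803 bases from the start of the principal GENCODE transcript. A match is a run of letters and not a measured binding site, and none of these libraries measured binding.

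The other genes of the pathway were read from prepared lists. Among 30 tested genes for the reversible steps, substrate entry and carriers, 4 fell, 1 rose and 25 did not pass, with a median log2 fold change of -0.07 (0.01 over all tested genes). Got1, the cytosolic aspartate aminotransferase of the malate-aspartate shuttle, fell from 169 ± 59.4 to 19.0 ± 8.11 RPKM. Sds, which turns serine into pyruvate, fell from 192 ± 49.2 to 43.4 ± 12.6 RPKM (adjusted p = 1.4e-04). Gpt, which turns alanine into pyruvate, fell by 0.50 ± 0.07 on the log2 scale. Without the 3 libraries the log2 fold changes of Got1, Sds and Gpt were -3.24, -2.14 and -0.50, and all 3 passed.

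Mdh2, the mitochondrial malate dehydrogenase, was the other that fell (117 ± 5.47 to 99.6 ± 6.81 RPKM, adjusted p = 0.0415). It was named after its values were seen, and its call was lost on leaving out any single library other than WT 5 or Gcg KO 12 (for Gcg KO 9, -0.22 and adjusted p = 0.101). Slc2a2, the glucose transporter GLUT2 through which the liver takes up and releases glucose, rose from 76.6 ± 10.3 to 111 ± 9.23 RPKM (0.54 ± 0.09, adjusted p = 0.00456; 0.50 and adjusted p = 0.0498 without the 3 libraries). In the 9 libraries 4 fell and 1 rose: Mpc1, a subunit of the mitochondrial pyruvate carrier, passed there (-0.45, adjusted p = 0.0275) and Mdh2 did not (adjusted p = 0.0730).

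Gapdh, a shared enzyme of both directions that was named after its values were seen, had 981 (WT) and 935 (Gcg KO) RPKM (adjusted p = 0.748), although its many processed copies make its counting uncertain. Pck2, the mitochondrial form of PEPCK, stayed under the filter at 0.373 (WT) and 0.493 (Gcg KO) RPKM.

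Enzymes of the opposing direction and their regulators gave 17 tested genes, of which 1 rose, 0 fell and 16 did not pass limma. The median log2 fold change was 0.15, and 5 were higher and 1 lower before adjustment. The 5 included Pdk1 and Pdk4, kinases that restrain pyruvate dehydrogenase, and the 1 was Gckr, the glucokinase regulator. These counts therefore do not describe opposing enzymes alone. Pklr, the liver pyruvate kinase, rose from 47.0 ± 11.4 to 79.9 ± 20.7 RPKM (0.75 ± 0.18, adjusted p = 0.0323; 0.65 and adjusted p = 0.0353 without the 3 libraries). The call was fragile: leaving out any 1 of WT 2, WT 3, WT 4, WT 5, Gcg KO 7, Gcg KO 9, Gcg KO 10 or Gcg KO 12 gave an adjusted p of 0.0582 to 0.0758. Pdhb, a subunit of pyruvate dehydrogenase, averaged 60.1 (WT) and 64.2 (Gcg KO) RPKM (adjusted p = 0.564), and Gckr had 58.5 and 50.4 RPKM (adjusted p = 0.133). In the 9 libraries their adjusted p-values were 0.582 and 0.138.

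Ratios of a gluconeogenic gene to a gene of glycolysis or pyruvate dehydrogenase within a library were computed as a description, without a test. On log2(RPKM + 0.5), the ratio of Fbp1 to Pfkl, the liver phosphofructokinase, was 6.04 ± 0.12 (SD) in WT and 5.36 ± 0.07 in Gcg KO. All 6 Gcg KO libraries were below all WT libraries, and Pfkl itself had 7.75 and 8.09 RPKM (adjusted p = 0.803). The log2 ratio of Pck1 to Pklr was 4.51 ± 0.84 in WT and 2.67 ± 1.89 in Gcg KO, and in the 9 libraries 4.83 ± 0.36 and 3.86 ± 0.32. In Gcg KO 12 the linear ratio was 0.869, the only library in which Pklr exceeded Pck1. The log2 ratio of Pcx to Pdha1, a subunit of pyruvate dehydrogenase, was 1.57 ± 0.16 and 1.59 ± 0.14.

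**Figure D4:**
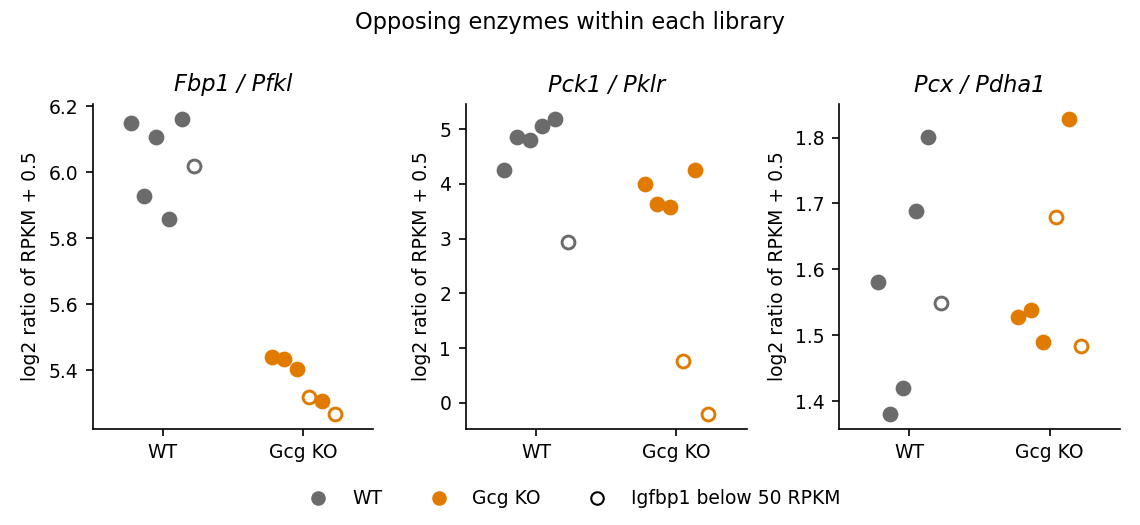
Log2 ratio of RPKM + 0.5 of a gluconeogenic gene to a gene of glycolysis (Pfkl, Pklr) or pyruvate dehydrogenase (Pdha1) in each library. Points are grey for WT and orange for Gcg KO, with the 3 libraries of low Igfbp1 as open circles. Each panel has its own axis, which does not start at 0. Only for Fbp1 over Pfkl are all Gcg KO libraries (5.27 to 5.44) below all WT libraries (5.86 to 6.16).

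Transcriptional regulators of gluconeogenesis were represented by 38 tested genes. In the 12 libraries 0 passed limma in either direction, while 1 was higher and 7 lower at an unadjusted p below 0.05 (median -0.03). Over all tested genes 15.7% had an unadjusted p below 0.05 in either direction, and the share by direction was not computed. Hnf4a, a nuclear receptor of hepatocytes, averaged 155 ± 8.94 (WT) and 158 ± 25.5 (Gcg KO) RPKM (adjusted p = 0.965; log2 fold change 0.02, and 0.14 with adjusted p = 0.431 without the 3 libraries). Creb3l3, a transcription factor of the endoplasmic reticulum membrane, had 116 ± 2.38 and 103 ± 9.34 RPKM (adjusted p = 0.155, and 0.470 in the 9 libraries). Without WT 6, 4 regulators passed as lower: Sik1, a kinase that restrains CREB coactivators (-2.01, adjusted p = 0.0221), the orphan receptor gene Nr4a1 (-2.53, adjusted p = 0.04995), Foxo1 (-0.59, adjusted p = 0.0182) and Klf15 (-0.61, adjusted p = 0.0434). That fit kept Gcg KO 10 and Gcg KO 12, so low Igfbp1 occurred in Gcg KO only and cannot be told apart from genotype. In the 3 libraries Sik1 had 1.26 to 1.76, Nr4a1 0.325 to 0.997 and Klf15 35.7 to 48.9 RPKM. The lowest values in the other 9 were 4.17, 3.39 and 54.3 RPKM. Foxo1 overlapped (5.64 to 6.93 RPKM in the 3, lowest 6.07 RPKM in the 9). Without all 3 libraries Klf15 (-0.39, adjusted p = 0.0409) and Foxa1 (higher, 0.59, adjusted p = 0.0449) passed and the other 36 did not. Foxa1 differed more between the 3 libraries and the other 9 than between genotypes. It had 9.91 to 14.4 RPKM in the 3, against 1.97 to 3.53 (WT) and 4.14 to 4.44 RPKM (Gcg KO) in the 9. These genes were named after their values were seen.

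Of 18 tested genes of the PGC-1 family, its partners and its targets, 0 passed limma in either direction (median 0.06). At an unadjusted p below 0.05, 4 were higher and 1 lower, against 15.7% of all tested genes in either direction. Acadm, a medium-chain acyl-CoA dehydrogenase, had 121 ± 13.1 (WT) and 123 ± 14.8 (Gcg KO) RPKM (adjusted p = 0.951). In the 9 libraries the hormone gene Fgf21, named after its values were seen, was the 1 that passed, and it was higher (1.35, adjusted p = 0.00307). It also passed without Gcg KO 10 alone (adjusted p = 0.0272) or Gcg KO 12 alone (adjusted p = 0.0256). Cpt1a, which admits fatty acids to mitochondria and was named after its values were seen, passed as lower with array weights (-0.33, adjusted p = 0.0388) and without Gcg KO 11 (-0.36, adjusted p = 0.0174).

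Among 10 tested genes known to respond to FoxO factors or insulin, 2 rose, 1 fell and 7 did not pass (median 0.11). Mttp, which loads lipid onto apolipoprotein B, rose from 85.8 ± 5.19 to 111 ± 5.18 RPKM (adjusted p = 0.00168), and in the 9 libraries by 0.39 (adjusted p = 0.0201). Txnip, a glucose-responsive arrestin, rose from 19.4 ± 11.8 to 62.5 ± 34.4 RPKM (1.70 ± 0.40, adjusted p = 0.0301; 2.07 and adjusted p = 0.0406 without the 3 libraries). Its call was lost without any 1 of WT 1, WT 2, WT 3, Gcg KO 7, Gcg KO 8 or Gcg KO 9 (adjusted p 0.0528 to 0.0755). Irs1, an insulin receptor substrate, fell from 3.78 ± 0.669 to 2.53 ± 0.278 RPKM (adjusted p = 0.0232), and this call was lost without the 3 libraries (-0.49, adjusted p = 0.0762) and without WT 2, WT 3 or Gcg KO 7 (adjusted p 0.0513 to 0.0593). Igfbp1 itself had 291 ± 232 and 316 ± 278 RPKM, with overlap.

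**Figure D5:**
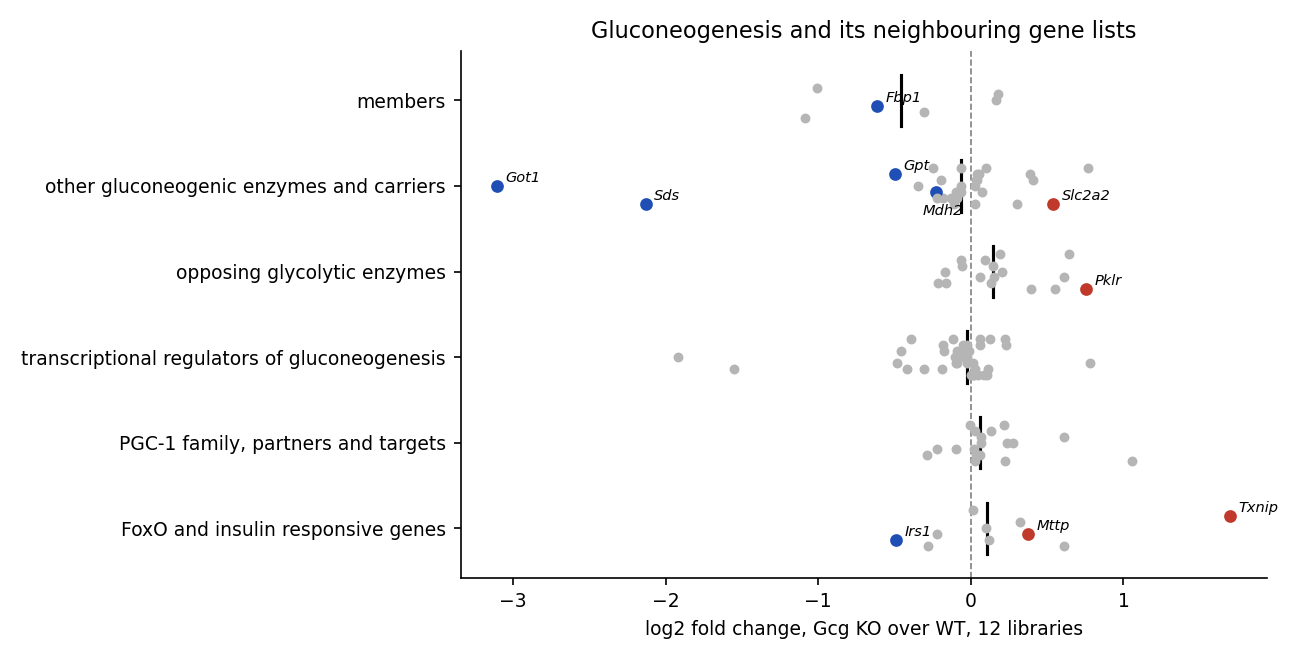
Log2 fold change, Gcg KO over WT in 12 libraries, of each tested gene in the 6 members and in 5 lists of related genes; called genes are labelled and coloured (blue for lower, red for higher in Gcg KO), uncalled genes are grey, and black bars are medians. Among the 6 members Fbp1 is the one coloured point, and the regulator and PGC-1 lists hold none.

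To describe which other genes varied like each member, deviations of log2(RPKM + 0.5) from the group mean were correlated over the 9 libraries with higher Igfbp1 and ranked over 9802 named genes. The values are the extremes of that ranking over few libraries and carry no test. G6pc was most like Irs2, an insulin receptor substrate (Pearson's r = 0.96), Pde4b, a cyclic AMP phosphodiesterase (0.95), and Lss, an enzyme of cholesterol synthesis (0.95). Irs2 was also at its lowest in the 3 libraries left out of that ranking, 2.35 to 2.55 RPKM against 3.30 to 12.9 RPKM in the 9. For the others the ranges overlapped: Lss had 7.62 to 10.7 RPKM in the 3 and 7.2 to 14.1 RPKM in the 9. Pde4b had 0.727 to 4.52 and 0.890 to 9.38 RPKM.

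Pck1 was most like Kctd15 (0.94), the survival factor gene Mcl1 (0.93) and Akr1d1, a steroid reductase (0.93), none of which was at its lowest in the 3 libraries with low Igfbp1. Fbp1 was most like Nek9, Agtpbp1 and Akap8 (0.97 to 0.98) and Pcx most like Furin, Cyp2c55 and Klf11 (0.93 to 0.98). Slc37a4 was most like Irf1, Acyp2 and Nck1 (0.98 each), and Ppargc1a most like Yipf2, Pigw and Rab21 (0.93 to 0.95). Among the members, Pck1 and Ppargc1a had a value of 0.83 and G6pc and Slc37a4 one of -0.84, while Pck1 and G6pc had 0.41.

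Markers of other cell types were read from the comparison of all 12 libraries, in which 3.87% of all tested genes passed. Of 6 macrophage, 5 neutrophil and 6 stellate cell markers tested, 0 passed limma, and summed macrophage markers were 44.7 to 84.1 RPKM in WT and 58.2 to 91.1 RPKM in Gcg KO. Of 6 endothelial markers 1 rose, with sums of 53.8 to 70.3 RPKM in WT and 58.7 to 90.5 RPKM in Gcg KO. Of lymphocyte and cholangiocyte markers, 1 and 2 were tested and 0 passed. The 1 adipocyte marker tested rose (sums 0.252 to 0.874 RPKM in WT and 1.11 to 4.64 RPKM in Gcg KO), and the 1 pancreatic marker tested fell (17.7 to 24.9 and 11.5 to 20.0 RPKM). The 4 erythroid markers held 1 that fell (sums 126 to 285 and 100.3 to 226 RPKM). Lep was listed at 0 in every library, as were the pancreatic markers Cpa1, Pnlip and Prss2. The part of these cells in the fall of Fbp1 was not tested.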

How the data were processed

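Strand-specific libraries of polyadenylated liver RNA were sequenced, per the labels' protocols. The authors deposited 1 table of RPKM values with a column for each of the 12 libraries; CASAVA 1.8.2, FastQC and the build GRCm38 are named in the submitters' processing notes. For the aligner, counting tool, annotation and strand setting, nothing is given in the sources used here. No exonic base of a member overlaps an exon of another GENCODE gene. Coordinates are from a RefSeq gene table of GRCm38.p6 that matched 24375 identifiers (99.6%). Reads per library were estimated from the commonest smallest step of RPKM multiplied by transcript length (191 to 241 genes near 2 steps, 81 to 112 of them within 1%); no count test was run.

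Genotypes were compared by two-sided tests in limma (version 3.58.1, run in R 4.3.3), without covariates and with the prior variance following mean expression. Named genes were the members, Gcg, Igfbp1, up to 4 called genes of each list by size of change (where fewer than 2 passed, the 2 most abundant) and the 3 most alike genes per member. The members, lists and alternatives were chosen with earlier results of these data known. On simulated data with 11347 genes the test found 49 of 67 true changes of 1.5-fold and 65 of 67 of 2-fold, and 11 of its 188 calls were false. The simulated noise was drawn independently for each gene and library. These rates therefore do not cover libraries in which many genes shift together. Alternatives were other pseudocounts, filters, scalings, weights and left-out libraries. Some genes the naming rule selects are not reported here.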

Additional observations from a re-analysis of the deposited data

Results flagged for a closer look

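In groups of 6 libraries, a value was singled out when its gap to the nearest other library exceeded 0.625 of the range of the group. Of 78 groups checked over the named genes, 8 met this, and chance gives about 1 in 20 for independent, normally distributed values. The named genes were partly chosen from these data and share libraries, so that rate does not test the count. Among the members, Pcx was high in Gcg KO 10 (133 RPKM, others 113 to 120 RPKM) and Ppargc1a was high in Gcg KO 7 (2.27 RPKM, others 0.664 to 1.13 RPKM). Gcg KO 11 was high for Got1 (35.3 RPKM, others 13.8 to 17.6 RPKM) and for Pde4b (2.74 RPKM, others 0.727 to 1.18 RPKM). WT 6 was low for Sds (95.9 RPKM, others 187 to 231 RPKM). WT 4 was low for Mttp (75.5 RPKM, others 86.8 to 90.0 RPKM). WT 5 was high for Kctd15 (4.92 RPKM, others 3.47 to 3.94 RPKM), and Gcg KO 12 was high for Klf11 (4.59 RPKM, others 2.64 to 3.37 RPKM).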

How the results depend on the processing

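Fbp1 kept its direction and its call under all 21 alternatives (log2 fold change -0.64 to -0.54, adjusted p 1.6e-05 to 0.00146). Pck1 (-1.34 to -0.32), G6pc (-0.61 to -0.03) and Slc37a4 (0.10 to 0.26) kept their direction and passed under none of 21. Pcx passed under quantile normalization only (0.23; 0.13 to 0.23 over 21). Ppargc1a passed under 2 of 20, without WT 6 and without Gcg KO 7 (range without 1 library -1.18 to -0.83); the filter at a mean of 2 RPKM removed it. The count of genes past the threshold was 280 to 472 without 1 library (136 to 262 higher, 144 to 210 lower; lowest without WT 3) against 439 (221 and 218). Among the 9 libraries it was 304 (131 and 173), 159 to 305 without 1 more (55 to 139 and 104 to 166; 190 without WT 3, 195 without Gcg KO 7, 177 without Gcg KO 8 and 159 without Gcg KO 9), and 189 with no filter on low values (69 higher), where more genes were tested. Differences near 0 changed sign. Igfbp1 (-0.28) was 0.12 with array weights, 0.54 without the 3 libraries and -1.20 to 0.47 without 1 library (above 0 without WT 4, Gcg KO 10 or Gcg KO 12: 0.13, 0.36 and 0.47). Hnf4a (0.02) was -0.0452 to 0.0792 without 1 library (below 0 without WT 1, Gcg KO 7 or Gcg KO 9). Acadm (0.02) was -0.0324 with array weights, -0.0481 without the 3 libraries and -0.0269 to 0.0627 without 1 library (below 0 without WT 1, WT 4, Gcg KO 10 or Gcg KO 12). The cause of these changes was not tested. No paired analysis was possible because the groups share no replicate number.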
